A study of Homo sapiens with 6 samples.

Results

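Heat shock proteins are molecular chaperones that bind unfolded or partly folded proteins. HSP70 proteins (HSPA genes) hold and release clients in a cycle driven by ATP. J-domain proteins (DNAJA, DNAJB and DNAJC genes) bring the clients and stimulate the ATPase, and HSP110 (HSPH1) and BAG proteins promote nucleotide exchange. HSP90 acts later on partly folded clients such as kinases and hormone receptors, small heat shock proteins hold unfolded proteins without ATP, and HSPD1 with HSPE1 forms the folding chamber of mitochondria. The transcription factor HSF1 drives the inducible genes of this network when unfolded proteins accumulate. In cancer cells the constitutive members are known to be abundant.

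The genes described here are the protein-coding genes of the deposited count table whose symbol starts as HSPA, HSPB, HSPD, HSPE or HSPH with a digit, as HSP90A, or as DNAJA, DNAJB or DNAJC with a digit, together with BAG1 to BAG6, CRYAB and HSF1. HSPA5, HSPA13, DNAJB9, DNAJB11, DNAJC3 and DNAJC10, which work in the endoplasmic reticulum, were left out. The rule takes 75 of 32943 genes in the table, and it uses names only, no measured values. It is wider than the cytosol: 9 of the 75 encode mitochondrial proteins and 6 encode proteins of the endoplasmic reticulum membrane. Of the 75 genes, 67 passed the filter on low counts and were tested.

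The libraries come from cells labelled AGS, a line from a human gastric adenocarcinoma, which were transfected by lipid reagent and harvested after 48 h. The 3 libraries titled NC received a control plasmid and serve as controls. The 3 titled oeIGF2BP3 received a pcDNA3.1 plasmid that carries 3xFlag-tagged IGF2BP3, an RNA-binding protein that is known to bind mRNAs and affect their stability. The series asked which genes and splicing events lie downstream of IGF2BP3. PolyA RNA was sequenced, the libraries held 33555366 to 37633587 gene counts, and the labels do not say whether replicates were separate cultures, so p-values measure the spread between these libraries only. The transfection was transient, and a gene count adds up plasmid and endogenous IGF2BP3 transcripts.

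IGF2BP3 was at 97.6 ± 6.22 CPM in controls and 583 ± 76.9 CPM with overexpression (SD, n = 3 libraries each), a log2 fold change of 2.58 (edgeR quasi-likelihood adjusted p = 1.278e-08). CPM are read counts scaled to the TMM-adjusted library size. The epithelial markers KRT8, KRT18, KRT19, EPCAM and CDH1 summed to 9782 to 10260 CPM in controls and 8865 to 10240 CPM with overexpression, and 2 of the 5, CDH1 and EPCAM, fell. Of 8 gastric markers, 6 had a value, and TFF1, TFF2, MUC5AC, MUC6 and CLDN18 were under 1 CPM in each library. The other, PGC, fell from 3.87 ± 0.504 to 1.04 ± 0.224 CPM (log2 fold change −1.90). Hepatocyte markers were expressed, and 5 of 5 fell: ALB, AFP, APOA1, APOA2 and TTR summed to 2026 to 2177 CPM in controls and 895 to 1032 CPM with overexpression. Of the 4 fibroblast markers tested 4 fell, with a sum of 209.7 to 220 CPM in controls and 120.4 to 134.4 CPM with overexpression. The libraries thus express liver markers and nearly no gastric ones, and which cells they hold was not resolved beyond the AGS label. The share of counts from mitochondrial genes was 6.54, 6.20 and 6.15% in controls and 5.28, 5.28 and 5.03% with overexpression, without overlap. The part of these shifts in the chaperone results was not tested, and in bulk RNA fewer cells of a type and less RNA per cell cannot be told apart. Leukocyte markers summed to 11.1 to 12.5 CPM and 7.28 to 8.87 CPM, and endothelial markers to under 1 CPM in each library.

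With IGF2BP3 overexpression, 29 of the 67 tested chaperone genes rose and 9 fell, and the other 29 did not pass the threshold (edgeR adjusted p under 0.05 over all genes). Among all 17747 genes tested, 18.5% rose and 19.2% fell, and 37.7% did either, against 43.3% and 13.4% of these genes. Their median log2 fold change was 0.12, and that of all genes was −0.0092. Those that rose included HSPA8, HSPA9, HSPA4, HSPH1, HSP90AA1, HSPD1, HSPE1 and the 4 DNAJA genes, while the abundant HSP90AB1 and HSPB1 did not pass. All 3 overexpression libraries lay above all 3 controls for 31 of the 67 members and below them for 14. Among all genes tested 25.3% and 25.4% did so, and groups without overlap were thus common in these data. The changes of the members were small. Of the members that passed, 3 had a fold of 1.5 or more (9.43% of all genes tested did), and each of these, HSPA6, CRYAB and DNAJB13, was under 1 CPM in every library. CRYAB and DNAJB13 met the filter on low counts through the controls, the group where they are high. Their falls are thus not independent of the filter. Among members at a mean of 10 CPM or more, 28 of 53 rose and 5 fell, where 28.8% and 22.1% of all genes at that level did. Of the 29 that rose, control replicate 1 was the lowest control for 19 and overexpression replicate 3 the highest overexpression library for 20. Without these libraries, 29 members rose, 27 of them shared with the full comparison, and 10 fell, 7 of them shared, while the members' median log2 fold change was 0.077.

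**Figure D1:**
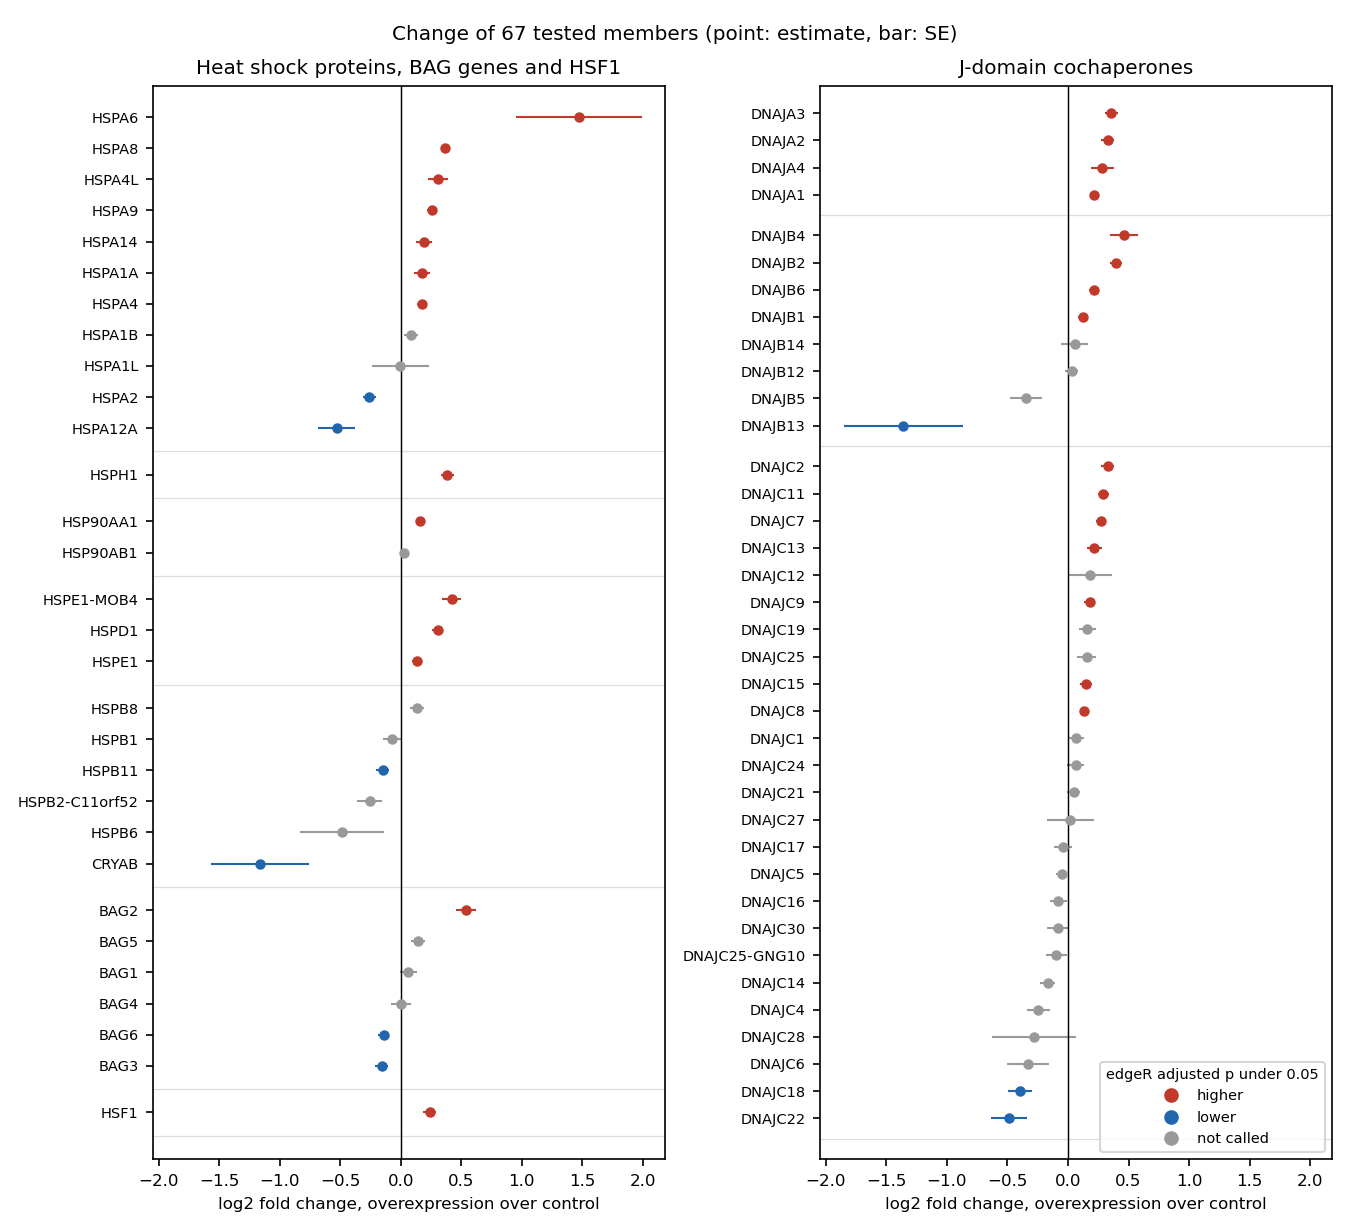
Log2 fold change of the 67 tested members, overexpression over control (x axis), grouped by family and ordered within it; points are edgeR estimates, bars are standard errors, and red, blue and grey mark higher, lower and not past the threshold. All DNAJA points lie right of 0, the HSPB group holds no red point, and the points farthest from 0 (HSPA6, CRYAB, DNAJB13) have the widest bars.

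The heat shock element is the sequence HSF1 is known to bind, inverted repeats of GAA. RefSeq promoter windows (GRCh38.p14, 250 bases before to 50 after a gene's start) were matched by symbol for 63 of the 75 genes, some with several starts. A 3-unit element, GAANNTTCNNGAA or its reverse complement TTCNNGAANNTTC, was found for 7 of the 63 genes (11.1%) and for 0.608% of all 27305 genes with a window. The 7 were DNAJA1, DNAJB6, HSP90AA1, HSP90AB1, HSPA6, HSPA8 and HSPD1. Of these 6 rose and HSP90AB1 did not pass. Among all genes tested 18.5% rose, and 28.8% did at 10 CPM or more. HSPA6 was under 1 CPM in every library, and its call depended on single libraries. Among matched members 6 of 27 that rose, 0 of 6 that fell and 1 of 25 that did not pass held the element. Whether the element goes with a rise was not tested. The sequences are shown because they mark the members with the classical response element. Each is 5′ to 3′ on the gene's strand, with the elements in capitals.
HSPA8 (chr11:123062173-123062197, minus strand): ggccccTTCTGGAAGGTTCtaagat
HSPA8 (chr11:123062348-123062372, minus strand): gagcttGAAAGTTCCAGAAcgctgc
HSP90AA1 (chr14:102087114-102087138, minus strand): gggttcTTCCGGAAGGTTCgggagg
HSP90AB1 (chr6:44247758-44247863, plus strand): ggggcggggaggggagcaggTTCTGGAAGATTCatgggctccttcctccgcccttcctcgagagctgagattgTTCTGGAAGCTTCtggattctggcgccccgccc
HSPA6 (chr1:161524446-161524498, plus strand): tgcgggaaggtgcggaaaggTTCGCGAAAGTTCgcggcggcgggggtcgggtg
HSPD1 (chr2:197500062-197500090, minus strand): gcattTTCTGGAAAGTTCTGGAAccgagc
DNAJA1 (chr9:33025270-33025294, plus strand): cgggcgGAACTTTCCAGAAcgctcg
DNAJB6 (chr7:157336853-157336905, plus strand): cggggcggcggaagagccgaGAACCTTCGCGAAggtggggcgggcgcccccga

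The HSPA8 elements began 230 and 55 bases before the RefSeq start, that of HSP90AA1 88 bases and those of HSP90AB1 165 and 112 bases before it. The HSPA6 element began 74 bases before the start and that of DNAJB6 131 bases before it. That of DNAJA1 lay just after the start, and the 18-base element of HSPD1, in which 2 matches of opposite orientation overlap, began 245 bases before its start. The HSPD1 element also lies within the annotated span of HSPE1 on the opposite strand, whose own window held no 3-unit element. A shorter 2-unit element, GAANNTTC or TTCNNGAA, is contained in every 3-unit one. It was found for 23 of 63 members (36.5%) and 16.2% of all genes: 14 of 27 members that rose held it, 0 of 6 that fell and 7 of 25 that did not pass. HSPA1A, HSPA1B and DNAJB1, textbook heat-inducible genes, held only the 2-unit form in these windows. The E-box CACGTG, a site MYC can bind, was in 7 of 63 members (11.1%) and 8.78% of all genes, namely DNAJC8, DNAJC12, DNAJC16, HSPA9, HSPD1, HSPE1 and HSPE1-MOB4. By call these were 5 of 27 that rose, 0 of 6 that fell and 2 of 25 that did not pass. HSPD1, HSPE1 and the readthrough gene HSPE1-MOB4 lie at the same locus, so they are not independent cases. CCAAT, on either strand, was in 20 of 63 members (31.7%) and 39.7% of all genes: 7 of 27 that rose, 1 of 6 that fell and 10 of 25 that did not pass. A match is a description of these letters and does not show a site in use.

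Among HSP70 genes, 7 of the 11 tested rose and 2 fell, with a median log2 fold change of 0.18. For this and the family counts below, 18.5% of all genes tested rose and 19.2% fell. At 10 CPM or more 28.8% and 22.1% did. The calls of HSPA14, HSPA1A and HSPA6 depended on single libraries, as given below. HSPA8 (ENSG00000109971.14; GRCh38 chromosome 11, 123057489 to 123063230, minus strand), the constitutive cytosolic HSP70 that also uncoats clathrin vesicles, was at 1538, 1573 and 1574 CPM in the controls and at 1970.3, 2003 and 2065 CPM with overexpression. The groups lay far apart relative to their spread. The log2 fold change was 0.37 ± 0.03 (SE), a 1.29-fold rise (edgeR adjusted p = 8.794e-06), and it was 0.35 to 0.39 with any single library left out. HSPA8 alone made up 37.8% of the net gain of 1194 CPM over all 75 genes, and HSPA8, HSPD1, HSP90AA1 and HSPA9 together made up 70.4%.

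HSPA9, the mitochondrial HSP70 that pulls proteins through the import channel, was at 415, 442 and 434 CPM in controls and 500.1, 515 and 529 CPM with overexpression. Each overexpression library lay above each control (log2 fold change 0.26 ± 0.04, edgeR adjusted p = 3.539e-04). HSPA4, a cytosolic relative of HSP110 that acts as an exchange factor for HSP70, rose by 0.17 ± 0.04 on the log2 scale. Its relative HSPA4L rose from 10.3 ± 0.365 to 12.8 ± 0.843 CPM (0.31 ± 0.08). HSPA14, a ribosome-bound HSP70 relative, rose from 24.4 to 27.7 CPM, but this call ended without control replicate 1 or 3, overexpression replicate 2 or 3, and with DESeq2.

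HSPA1A and HSPA1B are the main stress-inducible HSP70 genes. HSPA1A was at 55.4, 65.0 and 65.0 CPM in controls and 72.0, 69.9 and 67.8 CPM with overexpression. The lowest control was replicate 1. The log2 fold change was 0.18 ± 0.06 (edgeR adjusted p = 0.047), and without control replicate 1 it was 0.10 and did not pass (adjusted p = 0.15). Nor did it pass without overexpression replicate 1 or 2 (adjusted p = 0.13 and 0.09995). HSPA1B was at 31.4, 31.2 and 33.5 CPM and at 33.8, 34.4 and 33.5 CPM, and did not pass (0.08 ± 0.06, adjusted p = 0.28). The HSPA1A transcript shares 67.1% of its 150-base windows with HSPA1B transcripts, so how counts were split between the 2 genes is uncertain.

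HSPA6, a strictly inducible HSP70, had 9, 2 and 12 counts in the controls and 10, 29 and 28 with overexpression. Overexpression replicate 1 lay within the control range, and HSPA6 was the only member past the threshold whose groups overlapped. Its log2 fold change was 1.47 ± 0.52 (edgeR adjusted p = 0.042). The call ended without control replicate 2 or overexpression replicate 2 or 3 (adjusted p = 0.13 to 0.15), under upper quartile scaling and with limma-voom. In addition, 15.2% of its transcript windows occur in HSPA7, so the reads are uncertain too.

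HSPA2, an HSP70 best known from the testis, went the other way, at 92.2, 90.8 and 92.3 CPM in controls and 82.1, 73.7 and 74.1 CPM with overexpression. The groups did not overlap, and HSPA2 fell (log2 fold change −0.26 ± 0.05, edgeR adjusted p = 0.0022). It passed in each fit with a library left out. HSPA12A, a distant relative, fell from 4.15 ± 0.391 to 2.88 ± 0.504 CPM (−0.53 ± 0.15), but not without control replicate 3 or overexpression replicate 2 or 3 (adjusted p = 0.064 to 0.066). HSPA1L was at 1.04 CPM in both groups. HSPA12B had 12, 9 and 20 counts in controls and 2, 5 and 4 with overexpression, without overlap, and did not pass the filter on low counts. It was tested and lower by edgeR with no filter (adjusted p = 0.0031) and without control replicate 2 or any 1 of the overexpression libraries (0.0090 to 0.041). In those left-out fits HSPA12B passed the filter only through controls, the group where it is high. The calls there are thus no support for a fall.

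**Figure D2:**
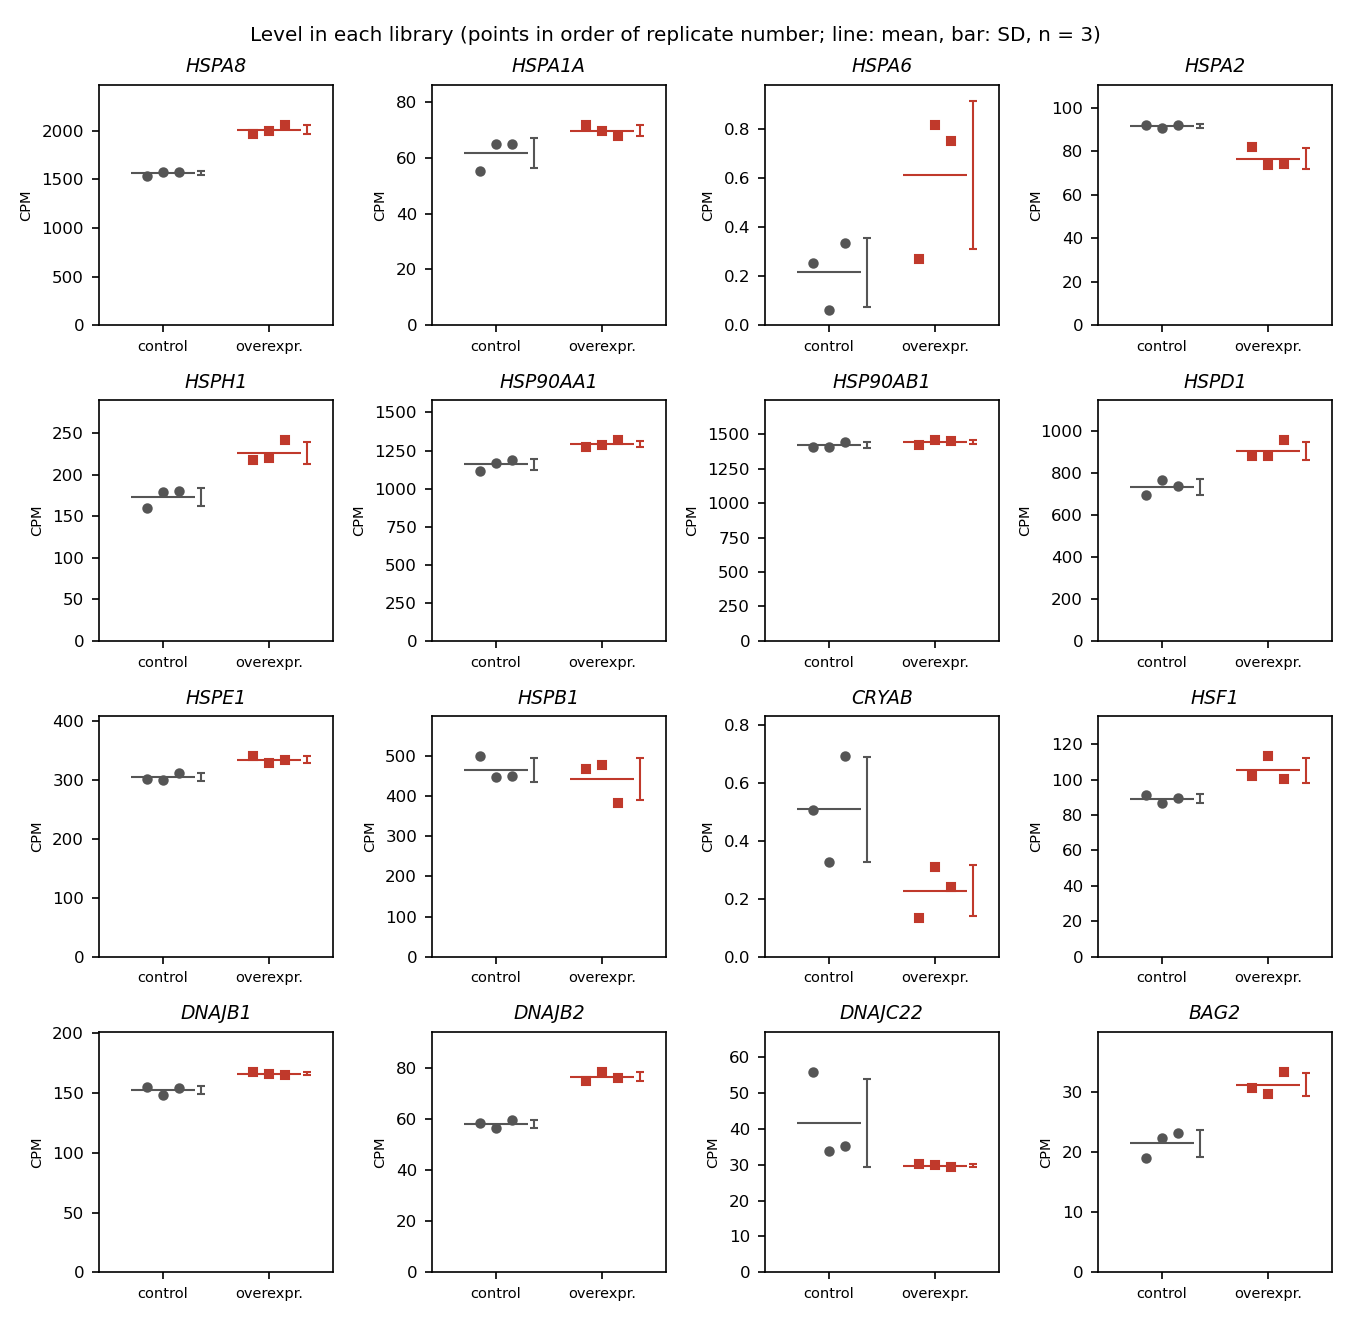
Level in each library (y axis, CPM after TMM scaling, from 0) for 16 members; grey circles are the 3 control libraries, red squares the 3 overexpression libraries, lines are means and bars SDs. HSPA8, HSPH1 and DNAJB2 separate fully, HSP90AB1 and HSPB1 overlap, and control replicate 1 of DNAJC22 stands at 55.8 CPM, above the other 2 controls at 33.9 and 35.3 CPM.

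HSPH1, the HSP110 exchange factor and disaggregase partner of HSP70, was at 160.2, 179 and 179.9 CPM in controls and 218, 219.6 and 241 CPM with overexpression. The rise was 1.31-fold (log2 fold change 0.39 ± 0.06, edgeR adjusted p = 2.417e-04), and 0.28 without control replicate 1 and overexpression replicate 3. Within each library the count ratio of HSPH1 to HSPA4 was 0.663, 0.716 and 0.724 in controls and 0.797, 0.799 and 0.840 with overexpression. The ratio needs no scaling and its groups did not overlap (two-sided exact permutation p = 0.1, the smallest that 3 against 3 libraries allow, 0.117 adjusted over the 7 ratios computed).

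Of the cytosolic HSP90 genes 1 passed the threshold. HSP90AA1, the more inducible form, was at 1119, 1170.4 and 1189 CPM in controls and 1275, 1287 and 1317 CPM with overexpression, a rise of 0.16 ± 0.04 on the log2 scale (edgeR adjusted p = 0.0042). HSP90AB1, the constitutive form, was at 1409, 1409 and 1447 CPM and at 1426, 1456 and 1452 CPM, with overlapping groups. Its log2 fold change of 0.023 ± 0.032 did not pass (adjusted p = 0.60) and turned to −0.021 under upper quartile scaling. The HSP90AA1 to HSP90AB1 count ratio went from 0.794, 0.831 and 0.822 to 0.894, 0.884 and 0.907, without overlap (exact permutation p = 0.1, the smallest possible, adjusted 0.117). Both promoters hold a 3-unit heat shock element, and HSP90AB1 holds a pair of them.

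The mitochondrial chaperonin genes, which lie head to head on chromosome 2, both rose. HSPD1 (HSP60) was at 695, 769 and 739.7 CPM in controls and 883, 882 and 956 CPM with overexpression. Its log2 fold change was 0.30 ± 0.05 (edgeR adjusted p = 3.241e-04), and 0.23 without control replicate 1 and overexpression replicate 3. HSPE1 (HSP10), its lid, rose from 305 ± 6.72 to 335 ± 6.16 CPM (0.13 ± 0.04, adjusted p = 0.015), and did not pass without control replicate 2 or overexpression replicate 1 (adjusted p = 0.066 and 0.056). The HSPD1 to HSPE1 count ratio was 2.30, 2.56 and 2.36 in controls and 2.59, 2.68 and 2.86 with overexpression, again without overlap (exact permutation p = 0.1, the smallest possible, adjusted 0.117). The exons of HSPD1 and HSPE1 overlap on opposite strands, over 6.6% and 14.2% of their length. Whether the counting used strand is unknown, so the ratio is uncertain. The readthrough gene HSPE1-MOB4 had a log2 fold change of 0.42 ± 0.08, but 74.4% of its transcript windows are shared with MOB4, which itself rose (0.19 ± 0.06, looked up after its values were seen). Its count cannot be assigned to HSPE1.

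**Figure D3:**
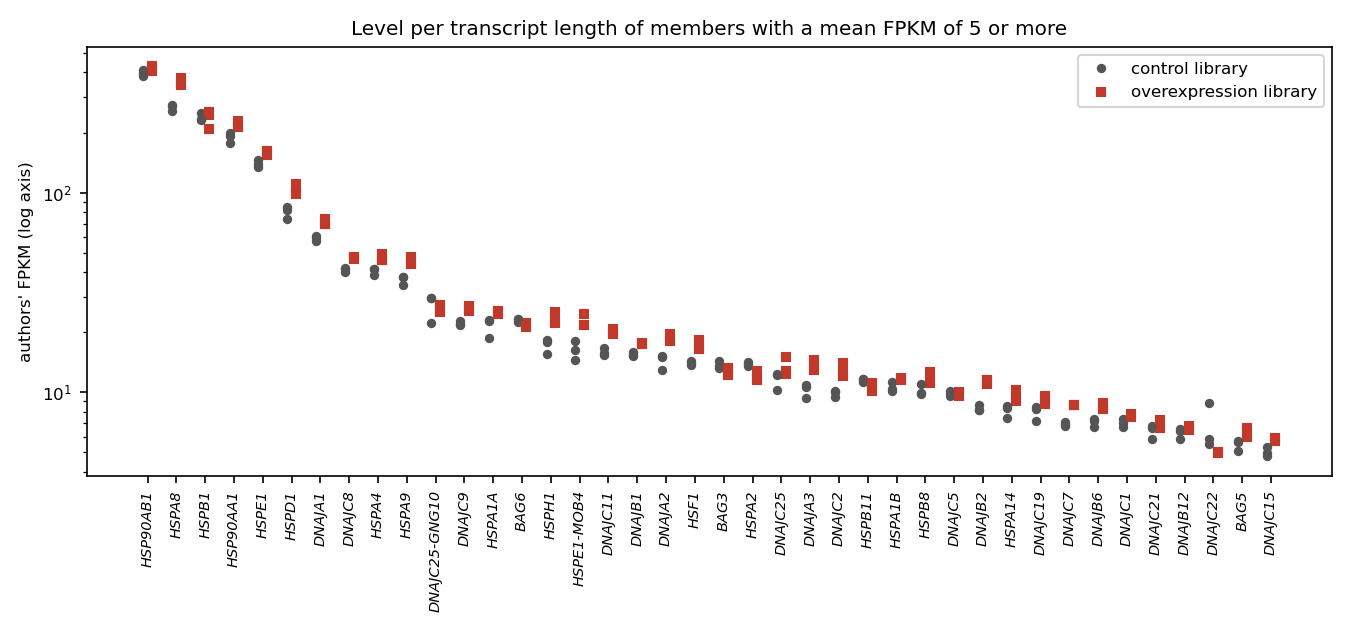
Authors' FPKM (log y axis) of the 40 members with a mean of 5 or more, ordered from high to low; grey circles are control libraries and red squares overexpression libraries. HSP90AB1, HSPA8, HSPB1, HSP90AA1 and HSPE1 lie above 100 in every library, and HSPA8 shows the widest gap between groups among these 5.

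Per transcript length, the highest level was that of HSP90AB1, with a mean of 397.5 FPKM in controls and 419 with overexpression. HSPA8 followed at 268 and 359 FPKM, HSPB1 at 239 and 235, HSP90AA1 at 189.6 and 219, HSPE1 at 139.5 and 159 and HSPD1 at 80.3 and 103. In controls the HSPA8 libraries, at 257 to 275 FPKM, lay just above those of HSPB1, at 232 to 249.7 FPKM. With overexpression HSPA8 was at 347 to 374 FPKM and HSPB1 at 207 to 252 FPKM. HSPA1A and HSPA1B were at 21.5 and 10.6 FPKM in controls, far below HSPA8.

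Of 6 small heat shock proteins tested 0 rose and 2 fell by edgeR. At an unadjusted p under 0.05, 1 was higher (HSPB8), and by DESeq2 or limma-voom 0 rose. HSPB1 (HSP27), the abundant one, was at 499, 448 and 449 CPM in controls and 467, 478 and 382 CPM with overexpression. The spread within each group exceeded the difference. Its log2 fold change of −0.07 ± 0.07 did not pass (edgeR adjusted p = 0.47). It was 0.022 without overexpression replicate 3, the lowest library, and 0.075 without that library and control replicate 1, where it passed in the upward direction (adjusted p = 0.022). HSPB8, which works with BAG3 in chaperone-assisted autophagy, was at 44.0 ± 2.05 and 48.4 ± 2.59 CPM (0.14 ± 0.06, adjusted p = 0.089).

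CRYAB, alpha-B crystallin, had 18, 11 and 25 counts in controls and 5, 11 and 9 with overexpression. It was near the limit of detection throughout, and it met the filter on low counts through the controls, where it is high. Its log2 fold change was −1.16 ± 0.41 (edgeR adjusted p = 0.041), and the call ended without control replicate 1 or 3, overexpression replicate 1 or 3, and with DESeq2. Its exons also overlap HSPB2 and HSPB2-C11orf52 on the opposite strand over up to 20.6% of their length, and whether the counting used strand is unknown here. HSPB11, a small heat shock protein by name that works in intraflagellar transport, fell from 41.5 ± 0.166 to 37.4 ± 1.43 CPM (−0.15 ± 0.05, adjusted p = 0.046). It passed in none of the 6 fits that left out 1 library, nor under RLE scaling or DESeq2. HSPB6 and HSPB2-C11orf52 did not pass. The latter, counted among the 6 tested, is a readthrough gene that shares 85.6% of its transcript windows with C11orf52. Its count cannot be assigned to HSPB2. HSPB2, HSPB3, HSPB7 and HSPB9 had 2 to 6 counts over all libraries and were not tested.

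All 4 DNAJA genes, the J-domain proteins closest to bacterial DnaJ, rose. DNAJA1, the main cytosolic partner of HSPA8, was at 188, 192 and 186 CPM in controls and 218, 217 and 225 CPM with overexpression (log2 fold change 0.22 ± 0.04, edgeR adjusted p = 0.0010). DNAJA2 rose from 85.2 ± 5.67 to 107 ± 3.33 CPM (0.33 ± 0.06). The mitochondrial DNAJA3 rose from 87.2 ± 4.87 to 112 ± 5.23 CPM (0.36 ± 0.06). DNAJA4, at 13.5 and 16.4 CPM, had 0.28 ± 0.09, and did not pass without control replicate 1 or 3 or overexpression replicate 2 or 3.

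Count ratios between HSPA8 and other members were computed within each library. The DNAJA1 to HSPA8 count ratio was 0.123, 0.122 and 0.118 in controls and 0.110, 0.108 and 0.109 with overexpression (exact permutation p = 0.1, the smallest possible, adjusted 0.117). The HSPA8 to DNAJB1 ratio was 9.90, 10.6 and 10.2 in controls and 11.7, 12.1 and 12.5 with overexpression, and the HSPA8 to HSP90AB1 ratio averaged 1.10 and 1.39 (exact permutation p = 0.1 for each, adjusted 0.117). The HSPA8 to HSPA1A ratio overlapped, at 27.7, 24.2 and 24.2 against 27.4, 28.7 and 30.5 (exact permutation p = 0.2, adjusted 0.2). None of the 7 ratios passed 0.05, which this design cannot reach.

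Among DNAJB genes 4 of 8 tested rose and 1 fell. DNAJB2, which carries ubiquitin-interacting motifs and sorts clients to the proteasome, was at 58.6, 56.6 and 59.7 CPM in controls and 75.1, 78.6 and 76.4 CPM with overexpression. This was a 1.32-fold rise with groups far apart (log2 fold change 0.40 ± 0.05, edgeR adjusted p = 7.106e-05). DNAJB4 rose from 17.2 ± 3.23 to 23.8 ± 1.91 CPM (0.46 ± 0.12), with control replicate 1 lowest at 13.6 CPM. Its log2 fold change was 0.32 without that library and 0.25 without overexpression replicate 3 as well, and it passed in both. DNAJB6, a suppressor of protein aggregation, rose by 0.21 ± 0.04.

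DNAJB1 (HSP40), the textbook heat-inducible J-domain protein, was at 155, 149 and 154 CPM in controls and 168, 166 and 165 CPM with overexpression. The groups did not overlap, yet the rise was only 1.09-fold (log2 fold change 0.12 ± 0.04, edgeR adjusted p = 0.033). It did not pass without control replicate 2 or 3 or overexpression replicate 1 or 2, or under upper quartile scaling. DNAJB13, an axonemal protein that met the filter on low counts through the controls, fell on 25, 15 and 12 counts against 12, 7 and 2. That call ended without control replicate 1 or 2, overexpression replicate 2 or 3, and with DESeq2. DNAJB12 and DNAJB14, of the endoplasmic reticulum membrane, and DNAJB5 did not pass, and DNAJB7 had 2 counts. DNAJB5 was near the threshold (−0.35 ± 0.13, edgeR adjusted p = 0.054). It passed as lower without control replicate 1 or overexpression replicate 1 and with limma-voom. With any other library left out, or with DESeq2, it did not pass.

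The DNAJC genes, which share the J domain but little else, were mixed: of 25 tested 7 rose (28%) and 2 fell. Among all genes tested 18.5% rose and 19.2% fell. The 7 DNAJC genes that rose were among the 19 of the 25 at 10 CPM or more, where 28.8% of all genes rose. DNAJC2, a ribosome-associated partner of HSPA14, had 79.5 ± 1.59 CPM in controls and 99.8 ± 6.33 with overexpression, a rise of 0.33 ± 0.05 on the log2 scale (edgeR adjusted p = 5.172e-04). DNAJC7, a cochaperone with tetratricopeptide repeats that links HSP70 and HSP90, rose from 108 ± 1.39 to 129.8 ± 1.69 CPM (0.27 ± 0.04). DNAJC11, of the mitochondrial cristae machinery, rose from 96.99 ± 3.34 to 119 ± 1.57 CPM (0.29 ± 0.05). Its exons overlap THAP3 on the opposite strand over 27.9% of their length, and THAP3, looked up after its values were seen, rose too.

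The endosomal DNAJC13 (0.22), the histone chaperone DNAJC9 (0.18), the mitochondrial DNAJC15 (0.15) and the splicing-associated DNAJC8 (0.14) rose as well on the log2 scale. DNAJC15 passed in 1 of the 6 fits that left out a library, and DNAJC8 did not pass without control replicate 2 or 3 or overexpression replicate 2. The DNAJC9 exons overlap FAM149B1 on the opposite strand over 24.0% of their length, and FAM149B1 did not pass (−0.14 ± 0.08). DNAJC18, of the endoplasmic reticulum membrane, fell from 7.14 ± 0.081 to 5.43 ± 0.287 CPM (−0.39 ± 0.10, edgeR adjusted p = 0.0074). DNAJC22 fell from 55.8, 33.9 and 35.3 CPM to 30.1, 29.8 and 29.4 CPM. Control replicate 1 stood apart: the log2 fold change was −0.49 with it and −0.22 without it, where it still passed (adjusted p = 0.012). With any overexpression library left out it did not pass (adjusted p = 0.060 to 0.069).

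The other 16 tested DNAJC genes had log2 fold changes from −0.33 to 0.19 and did not pass: DNAJC1, DNAJC4, DNAJC5, DNAJC6, DNAJC12, DNAJC14, DNAJC16, DNAJC17, DNAJC19, DNAJC21, DNAJC24, DNAJC25, DNAJC25-GNG10, DNAJC27, DNAJC28 and DNAJC30. DNAJC25-GNG10, a readthrough gene that shares 78.4% of its transcript windows with other genes, passed as lower without control replicate 1 (−0.21, adjusted p = 0.0091), and so did DNAJC6 (−0.45, adjusted p = 0.049), which codes for the clathrin-uncoating cochaperone auxilin. DNAJC5B and DNAJC5G had 1 count each. By compartment, 4 of 4 members of the mitochondrial matrix and 2 of 4 of mitochondrial membranes rose. The remaining mitochondrial member, DNAJC28, did not pass (−0.28). By edgeR 0 of 6 of the endoplasmic reticulum membrane rose and 1 fell, and 0 rose at an unadjusted p under 0.05 or by DESeq2 or limma-voom. Among all genes tested 18.5% rose and 19.2% fell, and 28.8% and 22.1% did at 10 CPM or more. These groups are small, and a difference between compartments was not tested.

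**Figure D4:**
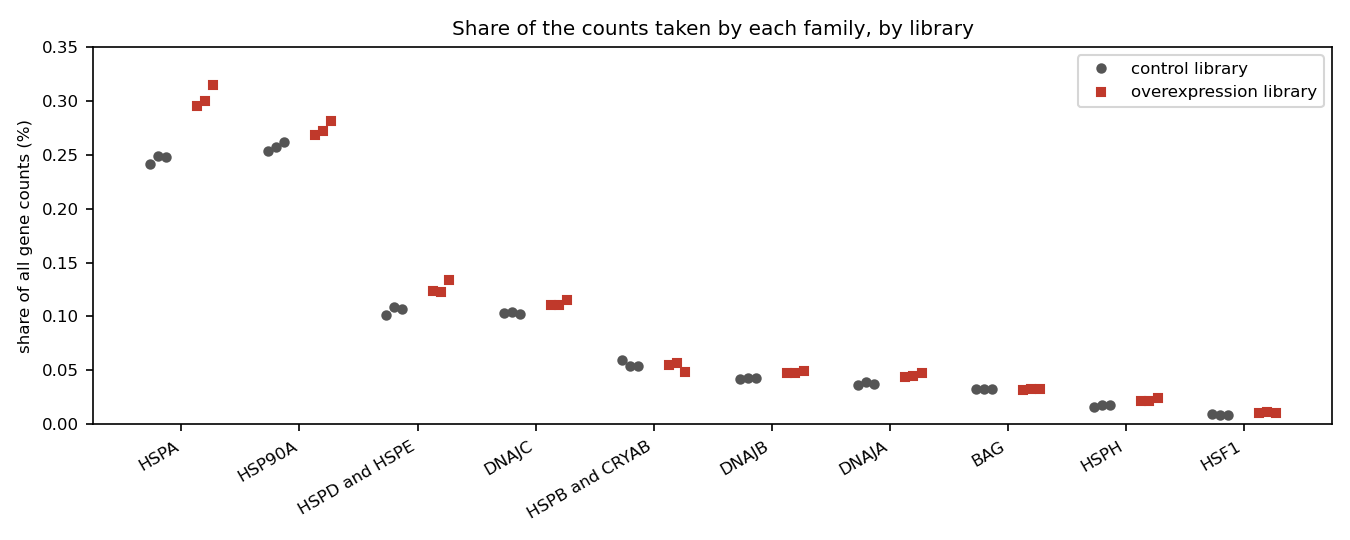
Share of all gene counts (y axis, percent, from 0) taken by each family in each library; grey circles are the controls and red squares the overexpression libraries, each in order of replicate number. The HSPA family goes from 0.242 to 0.249% in controls to 0.295 to 0.315% with overexpression, and the BAG and small heat shock protein families overlap.

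Among BAG genes, which link HSP70 to different fates of its clients, 1 of 6 rose and 2 fell. BAG2, an inhibitor of the ubiquitin ligase CHIP, was at 18.9, 22.3 and 23.1 CPM in controls and 30.5, 29.6 and 33.3 CPM with overexpression. At a log2 fold change of 0.54 ± 0.08 (edgeR adjusted p = 3.050e-04) it had the largest rise among members at 10 CPM or more. It was 0.41 without control replicate 1 and overexpression replicate 3. RAB23 lies on the opposite strand over part of the BAG2 exons, with 42.7% of their length under the largest overlap. RAB23 also rose (0.35 ± 0.09, looked up after its values were seen), so the count is uncertain.

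BAG3, an HSF1-dependent partner of HSPB8, was at 44.8, 44.3 and 46.2 CPM in controls and 39.2, 42.0 and 40.1 CPM with overexpression, a fall of 1.12-fold (log2 fold change −0.16 ± 0.05, edgeR adjusted p = 0.035). BAG6, which guards proteins with exposed hydrophobic segments, had −0.14 ± 0.05. Neither passed in every fit: BAG3 lost its call without control replicate 2 or 3, overexpression replicate 1 or 3, and with DESeq2, and BAG6 without control replicate 1 or 3 or overexpression replicate 1 or 3. BAG1, BAG4 and BAG5 did not pass. HSF1 itself was at 91.5, 86.6 and 89.7 CPM in controls and 102, 113 and 101 CPM with overexpression, a 1.18-fold rise (0.24 ± 0.05, edgeR adjusted p = 0.0048) that passed in each fit with a library left out.

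Other genes of the network were taken from lists of general knowledge. Most lie at 10 CPM or more, where 28.8% of all genes rose and 22.1% fell. Of 22 HSP90 cochaperones 10 rose (45.5%) and 3 fell (13.6%), with a median log2 fold change of 0.16. The immunophilin FKBP4 (0.33 ± 0.04), TOMM34 (0.33 ± 0.05), which links HSP70 and HSP90, and the AAA+ ATPase RUVBL1 (0.32 ± 0.04) rose. FKBP8 (−0.33 ± 0.07), PIH1D1 (−0.24 ± 0.05) and the phosphatase PPP5C (−0.19 ± 0.05) fell. Of 11 HSP70 cofactors and J-domain proteins with other symbols 4 rose (36.4%) and 1 fell (9.09%), with all 11 at 10 CPM or more. The mitochondrial exchange factors GRPEL1 (0.32 ± 0.05) and GRPEL2 (0.39 ± 0.06) and HSCB, a cochaperone of iron-sulfur cluster assembly (0.41 ± 0.08), were among those that rose, and ST13 (−0.16 ± 0.04) fell. HSCB is named beyond the rule for named genes, after its value was seen.

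Of 14 other heat shock factors and stress-inducible genes 4 rose (28.6%) and 3 fell (21.4%), with a median of 0.0040. Of the 14, 12 lay at 10 CPM or more, where 28.8% of all genes rose and 22.1% fell. The autophagy receptor SQSTM1 (685 ± 12.6 to 1014 ± 36.3 CPM) and ZFAND2A (0.52 ± 0.06) were among those that rose. The secreted chaperone clusterin, CLU, was at 243 ± 22.1 CPM in controls and fell to 99.9 ± 15.9 CPM (−1.28 ± 0.10, edgeR adjusted p = 3.308e-06). HSF4 (−0.46 ± 0.10) and HMOX1 (−0.28 ± 0.10) fell, HMOX1 at the threshold (edgeR adjusted p = 0.04997). HSF2 was at 26.7 and 27.0 CPM and did not pass. MRPL18 rose as well, named after its value was seen.

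Of 11 organelle chaperones outside the rule 1 rose (9.09%) and 4 fell (36.4%), with a median of −0.15. All 11 lay at 10 CPM or more, where 28.8% of all genes rose and 22.1% fell. The 11 include the 6 genes that the rule left out, of which DNAJC10 rose (0.17) and HSPA5 and DNAJB9 (−0.17) fell. The DNAJC10 groups overlapped, and its call lay at the threshold (edgeR adjusted p = 0.0491). HSPA5, the HSP70 of the endoplasmic reticulum, was at 741, 731 and 735 CPM in controls and 607, 621 and 630.2 CPM with overexpression. This log2 fold change of −0.25 ± 0.03 (edgeR adjusted p = 1.535e-04) stands beside 0.37 for the cytosolic HSPA8 and 0.26 for the mitochondrial HSPA9. HSP90B1 (−0.40 ± 0.04), the HSP90 of the same compartment, and HYOU1 (−0.28 ± 0.05), its HSP110, also fell. TRAP1, the mitochondrial HSP90, did not pass (0.07 ± 0.04).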

How the data were processed

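The values deposited by the authors are raw counts for 32943 genes and FPKM for 32477 genes. HISAT2, DESeq2 and GRCh38 are named, without versions or roles, per the submitters' processing notes. For the counter, its strand setting and the annotation: not given in the sources used here. Libraries were grouped by title. The test was edgeR's quasi-likelihood F test with group as the only term (edgeR 4.0.16, R 4.3.3) after filterByExpr (minimum count 10, minimum total 15) and TMM scaling. Benjamini-Hochberg adjustment ran over all 17747 genes tested, with adjusted p under 0.05 as the threshold. A standard error is the log2 fold change over the root of F. Levels are CPM, and the deposited FPKM were used to compare levels between genes. The fit was also run on counts simulated with dispersions from these same libraries, and the outcome is not given here.

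Members, lists and tests were chosen with earlier results of these data known. Every member past the threshold is named. The rule gives fuller values for up to 4 members per family and direction with the smallest p, 12 members preset by name and 3 genes per direction of each list. Further values (among them those of HSPA6, HSPA12B, HSPA14, HSPB8, DNAJC6, DNAJC8, DNAJC13, DNAJC15, DNAJC25-GNG10, HSF2, TRAP1 and DNAJB9) were added after they were seen. Some list genes are not reported here. Overlaps and shared 150-base windows came from GENCODE release 29, matched for 75 of 75 members by Ensembl ID without version. Promoters are RefSeq's (GRCh38.p14). Alternatives were other scalings and filters, DESeq2 1.42.0, limma 3.58.1 (voom, and log2 FPKM plus 1 or 0.1), a replicate block, libraries left out and stricter thresholds.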

Additional observations from a re-analysis of the deposited data

How the results depend on the processing

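Counts of members rested most on the threshold. The 29 rises became 19 at an adjusted p under 0.01 and 1 at a fold of 1.5, and the 9 falls became 2 and 2. Across the network lists, 19 rises and 11 falls became 1 and 1 at a fold of 1.5. With DESeq2 4 members fell. With limma on log2 FPKM plus 1 or plus 0.1, 2 members and 7 list genes fell under either pseudocount. With each library left out in turn, 22 to 26 members rose and 3 to 8 fell. The fewest falls were without overexpression replicate 3 (3: HSPA2, DNAJC18 and HSPA12B, the last not tested in the full comparison and here past the filter only through controls) and control replicate 3 (4). In the lists 17 to 22 rose and 9 to 11 fell, and the log2 fold change of IGF2BP3 was 2.47 to 2.67. Of the 29 members that rose, 21 kept their call under each other scaling, filter, tool and left-out library in which they were tested. Of the 9 that fell 2 did so, HSPA2 and DNAJC18. Under upper quartile scaling 21 members rose and 13 fell, and of all genes called 39.5% rose, against 49.1% under TMM. HSP90AB1 then changed sign (−0.021). HSPB1 was at −0.129 to 0.022 with each library left out, changing sign without overexpression replicate 3, and at 0.075 without that library and control replicate 1. In the 29 members that rose, control replicate 1 was the lowest control for 19 and overexpression replicate 3 the highest for 20. With the replicate number as a block, 27 members rose and 8 fell. Same-numbered libraries did not deviate together (correlations 0.089, −0.043 and 0.082), so the numbers were not taken as pairs. The low-count members CRYAB, HSPA6 and DNAJB13 had 2 to 29 counts per library, so their fold changes have wide errors.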
